A study of Mus musculus with 2 samples.

Results

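The tumour necrosis factor (TNF) superfamily comprises trimeric cytokine ligands and the receptors that bind them. The family and its members were chosen with earlier results of these data known. The rule went by gene name: every probe set that the platform annotation assigned to exactly 1 gene whose symbol starts with Tnfsf or Tnfrsf, plus the superfamily genes known by other symbols (Tnf, Lta, Ltb, Ltbr, Cd40, Cd40lg, Fas, Fasl, Cd27, Cd70, Ngfr, Eda, Edar, Eda2r and Relt). This gave 71 probe sets of 42 genes, out of 34945 probe sets of 18193 genes with 1 gene name. They were 14 ligand genes, 27 receptor genes and Tnfsf13os, an opposite-strand transcript that shares the name of a ligand and encodes none. Transcripts were compared between bone-marrow-derived dendritic cells of wild-type C57BL/6J mice treated with lipopolysaccharide (LPS) and those of miR155-/- mice of the same strain treated alike, with 1 array for each genotype. The cells of both had been cultured for 7 days in 20 ng/ml GM-CSF, a myeloid growth factor, and then received 10 ng/ml LPS, a bacterial product sensed by innate immune cells. The design addresses how the absence of the microRNA miR-155 alters expression in activated dendritic cells. No untreated cells were compared, so the response to LPS itself was not measured, and the number and age of the mice, the length of exposure and the form of the knockout allele were not given in the sources used here.

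Most ligands of the family are made as membrane proteins and may be cut free by proteases. They bind receptors that fall into those with an intracellular death domain, which can start apoptosis or necroptosis, those without one that recruit TRAF adaptors and activate NF-kB and MAP kinases, and decoys that bind ligand without signalling. In dendritic cells, TNF released after LPS acts on the cell itself and its neighbours, CD40 receives help from T cells, and membrane ligands such as OX40L, CD70 and the CD137 ligand co-stimulate T cells.

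The deleted microRNA acts through the seed of its mature strands, the bases that pair with target transcripts. The strands are shown because their loss defines the knockout. The seed, bases 2 to 8 counted from the 5′ end, is in capitals, and the sequences are those of RefSeq on GRCm38.p6, on the plus strand at chr16:84714143-84714165 for the 5p and chr16:84714182-84714202 for the 3p strand.
mmu-miR-155-5p: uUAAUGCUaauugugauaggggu
mmu-miR-155-3p: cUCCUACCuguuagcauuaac

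The deposited intensities had a median of 58.4 on the wild-type and 78.3 on the knockout array, so they were quantile normalized on the log2 scale. Without scaling the median measured gene was higher by 0.54 on the knockout array, and differences given below are therefore relative to the bulk of genes. Values under the median of all normalized values, an intensity of 67.6, were set to that floor, which is a choice of this work and no detection call, and a gene with either array above it is called measured. As a check of the labels, Mir155hg, from which the microRNA is processed, stood at 1136 on the wild-type and 159.3 on the knockout array; where its probe set lies relative to the deletion is not known here. The dendritic cell markers Itgax, H2-Ab1 and Cd74 were bright on both arrays (3896 to 11584), but so were the macrophage markers Adgre1 and Csf1r (7458 to 11268). Some other dendritic cell markers were dim: Zbtb46 had 187.8 and 139.8, Dpp4 had 144.4 and 183.4, and Flt3 exceeded the floor on the knockout array alone (88.8). Ribosomal 18S control probe sets, which reflect how RNA was prepared, ranged from 95.1 to 126.1 as deposited for wild type and from 389.2 to 581.9 for knockout, and their part in the results was not tested. Single arrays give no replicate spread and no p-value. The error measurable inside the arrays is the SD between probe sets of the same gene, 0.29 on the log2 scale over 11653 probe sets of 4410 genes and 0.25 over 18 probe sets of 8 members, and it holds no variation between mice or cultures.

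Of the 42 genes, 28 were measured, and 24 exceeded the floor in both genotypes. Relative to the bulk of genes the family lay lower in knockout cells: 6 measured members were at least 1.5-fold lower, namely Cd40, Cd70, Tnfrsf13c, Tnfrsf9, Tnfsf4 and Tnf, and none was at least 1.5-fold higher. Among all 11878 measured genes, 4.1% were at least 1.5-fold lower and 4.57% at least 1.5-fold higher, against 21.4% and none of the members. The absence of higher members depends on the floor: with it at the 25th percentile 10 of 37 measured members were at least 1.5-fold lower and 4 at least 1.5-fold higher (9.82% and 9.83% of all genes), and with no floor 13 and 7 of 42 (13.5% and 13.7%). That absence also rests on the rule of 1 gene name, which left out a probe set of Tnfrsf22 and Tnfrsf23, 1.97-fold higher. Any lower value was seen in 21 of the 28 members, or 75%, against 48.5% of all measured genes. The 21 include Ltbr, whose difference rounds to 0.00. On the deposited values, where 7.14% of all genes were lower, 6 of 29 measured members were. The median difference (knockout minus wild type, log2) was -0.19 over the measured members and 0.01 over all measured genes. At least 2-fold lower was 1 member, Cd40, and no member was at least 2-fold higher, where the share of all genes was 0.615% lower and 0.572% higher. By probe set, 9 of 39 measured ones were at least 1.5-fold lower, or 23.1%, against 4.67% of all measured probe sets, and several of these interrogate the same gene. The ligands had the lower median, -0.36 over 8 measured genes, and the receptors one of -0.08 over 20. Since the members differ widely in brightness and respond to shared signals, they are not independent of one another. These shares describe a pair of arrays and a family chosen with earlier results known. In bulk RNA, fewer cells of a type and less RNA per cell cannot be told apart.

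**Figure D1:**
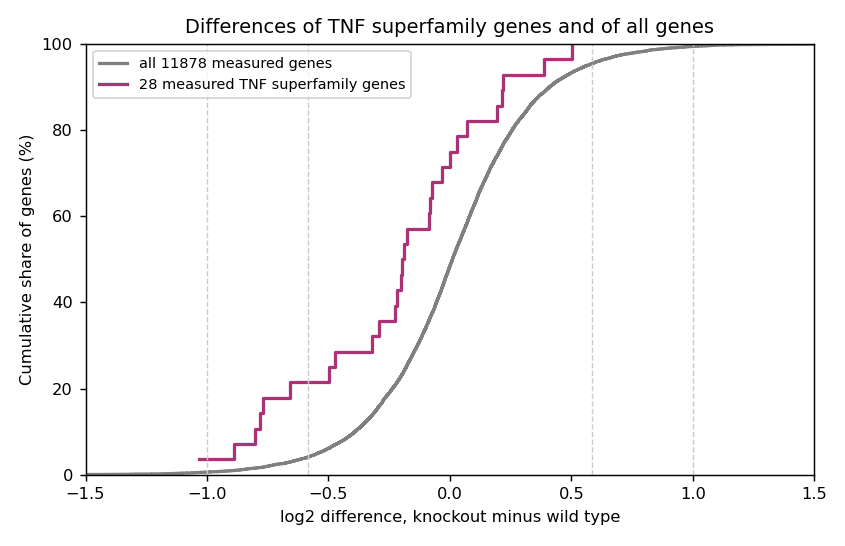
Cumulative share of genes (y axis, %) at or below each log2 difference, knockout minus wild type (x axis), for the 28 measured TNF superfamily genes and all 11878 measured genes; dashed lines mark 1.5-fold and 2-fold. The family's curve runs to the left of that of all genes, with medians of -0.19 and 0.01, and ends at 0.50; members above the floor on 1 array only are drawn at their bound.

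Among the ligands, Tnf, which encodes the cytokine that gives the family its name, had a normalized signal of 1858 on the wild-type and 1176 on the knockout array. It was 1.58-fold lower in knockout cells (-0.66), more than the probe set SD, and 2.96% of measured genes had a difference at or below it. As deposited, its signals were nearly level, 1511 and 1451, while the bulk of genes was higher on the knockout array. Tnfsf4, which encodes OX40L, a co-stimulatory ligand for activated T cells, had signals of 414.8 and 243.2. This was a 1.71-fold lower value (-0.77). Cd70, the ligand of CD27 on T cells, had 130.7 in wild-type and 70.54 in knockout cells. It was 1.85-fold lower (-0.89), with a knockout value only just above the floor, where probe set disagreement is greater (SD 0.34 for genes of low signal). Each of Tnf, Tnfsf4 and Cd70 was read by 1 probe set.

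Lta, encoding lymphotoxin alpha, a soluble ligand of the TNF receptors, had signals of 459.3 and 325.7 and a difference of -0.50, with deposited signals of 374.4 and 397.3. Ltb, encoding lymphotoxin beta, which anchors lymphotoxin alpha to the membrane, was the only measured ligand with a higher value in knockout cells. Its signals were 69.31 and 98.09 (0.50), so that the wild-type value lay just above the floor and the gene was dim on both arrays. Lta and Ltb thus differed in opposite directions from wild type, by 1.41-fold and 1.42-fold, although both lie near Tnf on chromosome 17.

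The remaining measured ligands had differences within the probe set SD at the probe set used. Tnfsf9, the ligand of CD137, had signals of 238.6 and 207.3 (-0.20). Tnfsf13b, encoding the B cell survival factor BAFF, had 135.9 and 116.0 (-0.23), and its other measured probe set gave -0.19. Tnfsf10, encoding the death ligand TRAIL, had 162.8 and 141.9 at the probe set used (-0.20). Its other 2 probe sets, at 117.7 and 73.42 and at 116.4 and 72.33, were 1.60-fold and 1.61-fold lower, so that all 3 pointed one way but disagreed in size. When the median over measured probe sets was taken, the difference of Tnfsf10 was -0.68. Below the floor on both arrays were Cd40lg, Fasl, Eda, Tnfsf8 (CD30 ligand), Tnfsf11 (RANKL) and Tnfsf14 (LIGHT), as was the opposite-strand transcript Tnfsf13os, and no difference is given for them.

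**Figure D2:**
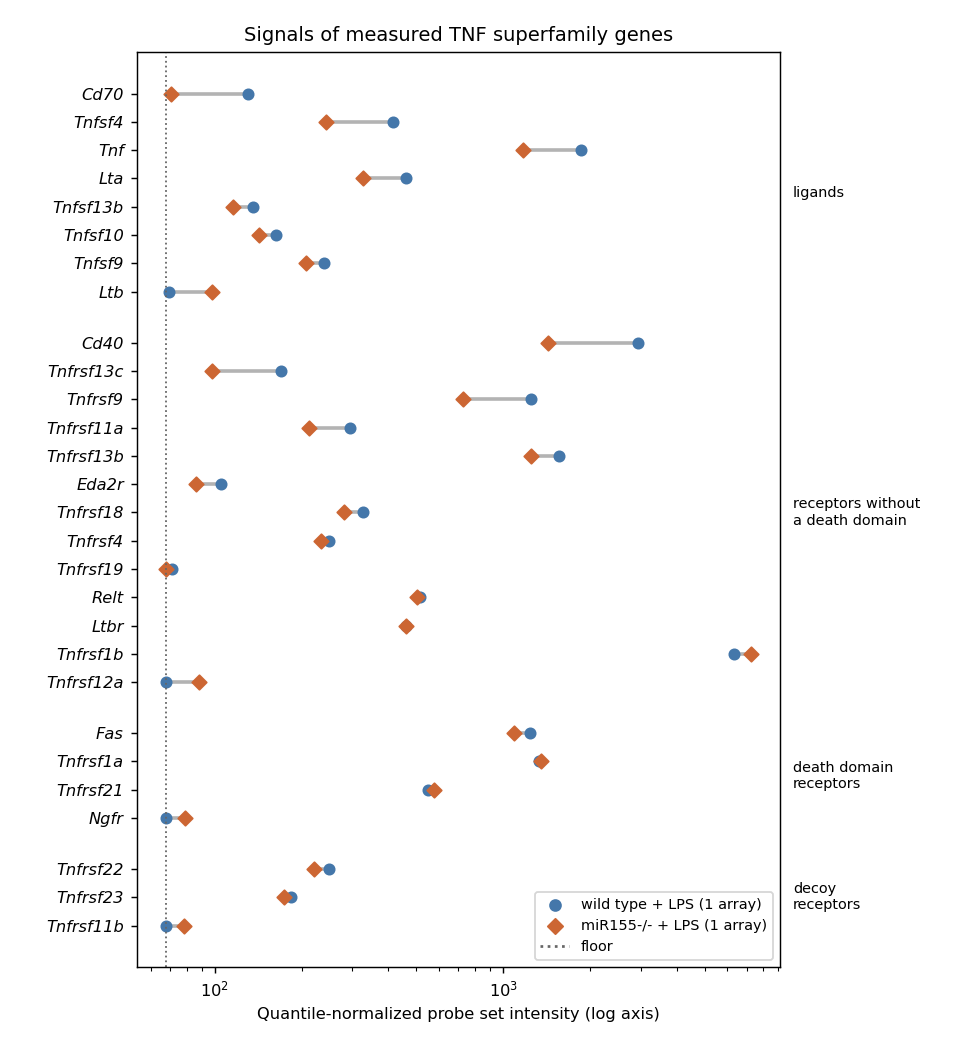
Quantile-normalized intensity (x axis, log scale) of each measured member on the wild-type array (circles) and the knockout array (diamonds), grouped by role, with the floor of 67.6 dotted; each point is 1 array, so no error bar exists. In 7 of 8 ligands the knockout point lies to the left, and the widest gap is that of Cd40, from 2933 to 1436.

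Receptors without a death domain, which signal through TRAF adaptors, held all 3 receptors that were at least 1.5-fold lower; 13 of 17 were measured, and their median difference was -0.22. Cd40, the receptor through which T cells activate dendritic cells, stood at 2933 on the wild-type and 1436 on the knockout array at the probe set used. This was 2.04-fold lower, and 0.547% of measured genes had a difference at or below it. The other Cd40 probe sets had 2470 and 1667 (-0.57) and 2024 and 1382 (-0.55), so all 3 were lower while only 1 passed 2-fold. On the deposited values the first remained lower (2418 and 1770) and the others were about level (2013 and 2054, 1641 and 1701). Averaging the probe sets of the gene gave -0.72, and their median was -0.57, under the 1.5-fold limit.

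Tnfrsf9, encoding the inducible co-stimulatory receptor CD137, had signals of 1252 and 728.3, 1.72-fold lower. Its second measured probe set, at 288.6 and 154.7, was 1.87-fold lower, and the remaining one lay below the floor on both arrays. The measured Tnfrsf9 probe sets were lower in knockout cells on the deposited values as well, by 0.17 and 0.34 on the log2 scale (1019 and 905.8, 236.3 and 186.1). The receptor was thus 1 of 2 members, with Cd40, that was at least 1.5-fold lower and read by more than 1 measured probe set.

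Of the receptors of BAFF and the related ligand APRIL, Tnfrsf13c passed 1.5-fold. Tnfrsf13c, encoding the BAFF receptor, had signals of 170.0 and 97.49 (-0.80). Tnfrsf13b, encoding TACI, which binds both ligands, had signals of 1561 and 1249 and a difference of -0.32, which turned to 0.28 on the deposited values. Tnfrsf17, encoding the plasma cell receptor BCMA, lay below the floor on both arrays. Markers of B and plasma cells moved with Tnfrsf13c: 5 of 9 were measured, and all 5 were lower. Their list summed to 1764 in wild type and 487.7 in the knockout. Ighm (734.1 and 142.3, with 5 of its 8 measured probe sets lower and 3 higher), Jchain (436.4 and 92.64) and Mzb1 (253.4 and at or below the floor) led them, while Pax5, Cd79a, Ebf1 and Vpreb3 lay below the floor on both arrays. The part of such cells in the lower Tnfrsf13c signal was not tested.

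Other TRAF-binding receptors showed smaller differences. Tnfrsf11a, encoding RANK, the receptor of RANKL, had 294.7 and 212.3 (-0.47), with a second probe set at -0.26. Tnfrsf18, encoding the co-stimulatory receptor GITR, had 327.2 and 281.5 (-0.22), and Tnfrsf4, encoding OX40, had 248.3 and 234.4 (-0.08). Eda2r, a receptor of an ectodysplasin form, was dim at 105.4 and 86.15 (-0.29). Tnfrsf19 exceeded the floor on the wild-type array alone and was at least 1.05-fold lower, with a second such probe set at least 1.27-fold lower. Relt (514.3 and 502.6) and Ltbr, the lymphotoxin beta receptor (459.1 on both arrays), lay at differences of -0.03 and 0.00.

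Of the receptors without a death domain, 2 had higher values in knockout cells. Tnfrsf1b, encoding TNFR2, the TNF receptor of immune cells, had 6326 and 7228 (0.19). Its second probe set pointed the other way, at 694.3 and 531.6 (-0.39), so no direction can be given for this gene. Tnfrsf12a, encoding the TWEAK receptor Fn14, exceeded the floor on the knockout array alone (88.51) and was at least 1.31-fold higher, with a difference of 1.12 with the floor at the 25th percentile. Cd27, Tnfrsf8 (CD30) and Tnfrsf14 (HVEM) lay below the floor on both arrays.

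Of 7 death domain receptors, 4 were measured and none passed 1.5-fold; the 3 above the floor on both arrays had differences within the probe set SD. Tnfrsf1a, encoding TNFR1, the death domain receptor of TNF, had signals of 1329 and 1354 (0.03). Fas, the receptor of the Fas ligand, had 1242 and 1090 (-0.19), and Tnfrsf21, encoding DR6, had 547.3 and 574.9 (0.07) with a second probe set at 0.10. Ngfr, the p75 neurotrophin receptor, exceeded the floor on the knockout array alone (78.78) and was at least 1.17-fold higher, a bound set by the floor; with the floor at the 25th percentile its difference was 0.52. Tnfrsf10b, encoding the mouse TRAIL death receptor, Tnfrsf25 and Edar lay below the floor on both arrays. Of the 3 decoy receptors, Tnfrsf22 had 249.4 and 220.6 (-0.18), with a second probe set at 0.31, Tnfrsf23 had 184.5 and 174.0 (-0.09), and Tnfrsf11b, encoding osteoprotegerin, exceeded the floor on the knockout array alone (78.34). Its value, at least 1.16-fold higher, is again a bound, and its difference was 0.92 with the floor at the 25th percentile. The probe set shared by Tnfrsf22 and Tnfrsf23, left out by the rule of 1 gene name, had 412.2 and 812.8 (0.98). Differences smaller than the probe set SD do not show that a transcript was the same in both genotypes.

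**Figure D3:**
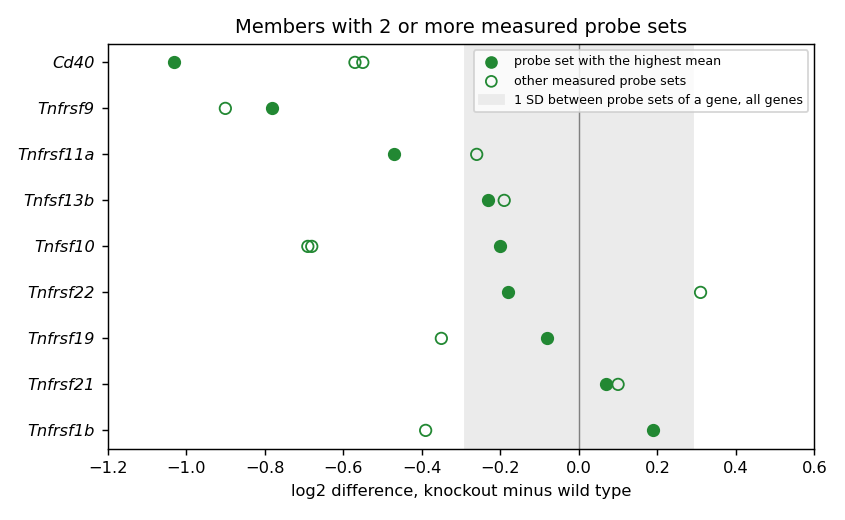
Log2 difference, knockout minus wild type (x axis), of every measured probe set of the 9 members with 2 or more; filled points are the probe sets used for the gene, and the grey band is 1 SD (0.29) between probe sets of a gene. In 7 of the 9 all probe sets share a direction, and Tnfrsf1b and Tnfrsf22 are split.

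Ligands and receptors are set side by side here at the probe set used for each gene. Tnfsf13b was at -0.23 and its receptors Tnfrsf13b and Tnfrsf13c at -0.32 and -0.80. Tnfsf10 was at -0.20 with its decoys Tnfrsf22 and Tnfrsf23 at -0.18 and -0.09. Other probe sets differed from these: Tnfsf10 had -0.68 and -0.69, Tnfrsf22 had 0.31, and the probe set shared by Tnfrsf22 and Tnfrsf23 had 0.98. Tnf was at -0.66 while its receptor Tnfrsf1a was at 0.03, and the probe sets of its other receptor, Tnfrsf1b, were split (0.19 and -0.39). Tnfsf4 was at -0.77 and its receptor Tnfrsf4 at -0.08. In the CD137 pair the ligand Tnfsf9 was at -0.20 and the receptor Tnfrsf9 at -0.78. Cd40 was at -1.03 (other probe sets -0.57 and -0.55) with its ligand Cd40lg, a T cell gene, below the floor. Cd70 was at -0.89 with its receptor Cd27, a lymphocyte gene, below the floor as well. The T cell markers Cd3e, Cd3d and Cd3g lay below the floor on both arrays. Of 9 T and NK cell markers 3 were measured, with a summed signal of 592.3 and 490.4 over the list. Thy1 was lower (256.4 and 118.1), while Cd8a (150.7 and 177.7) and Cd4, above the floor on the knockout array alone (76.07), were higher. Whether these differences between ligand and receptor exceed the variation between cultures was not tested.

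The members' differences depended on the scaling by a shift shared with all genes. On the deposited values, where the median gene stood at 0.54, only the same 6 members that were at least 1.5-fold lower after normalization had values below 0, from -0.06 for Tnf to -0.45 for Cd40. The sign of Lta, Tnfrsf11a, Tnfrsf13b, Tnfsf13b, Tnfsf9, Fas and the other members lower by less than 1.5-fold was turned there (Tnfrsf19 was not measured), as was that of the other Cd40 probe sets. Of the measured members, 21 of 28 after quantile normalization or loess, 19 of 28 with centring on the median or scaling on hybridisation controls and 22 of 29 with no scaling lay below the median gene of that scaling. Relative to the median gene of each scaling, Cd40 lay between -0.99 and -1.04, Cd70 between -0.90 and -0.98, Tnfrsf13c between -0.81 and -0.85, Tnfrsf9 between -0.71 and -0.79, Tnfsf4 between -0.74 and -0.78 and Tnf between -0.60 and -0.67. The deposited values, median centring and scaling on hybridisation controls differ from one another only by a constant and the floor, so their like values follow from the arithmetic and are not separate checks. The ranges above are for the probe set used, and the other Cd40 probe sets were at -0.57 and -0.55 after quantile normalization. A lower absolute amount of the transcripts of these 6 genes cannot be told apart from the array's overall brightness.

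**Figure D4:**
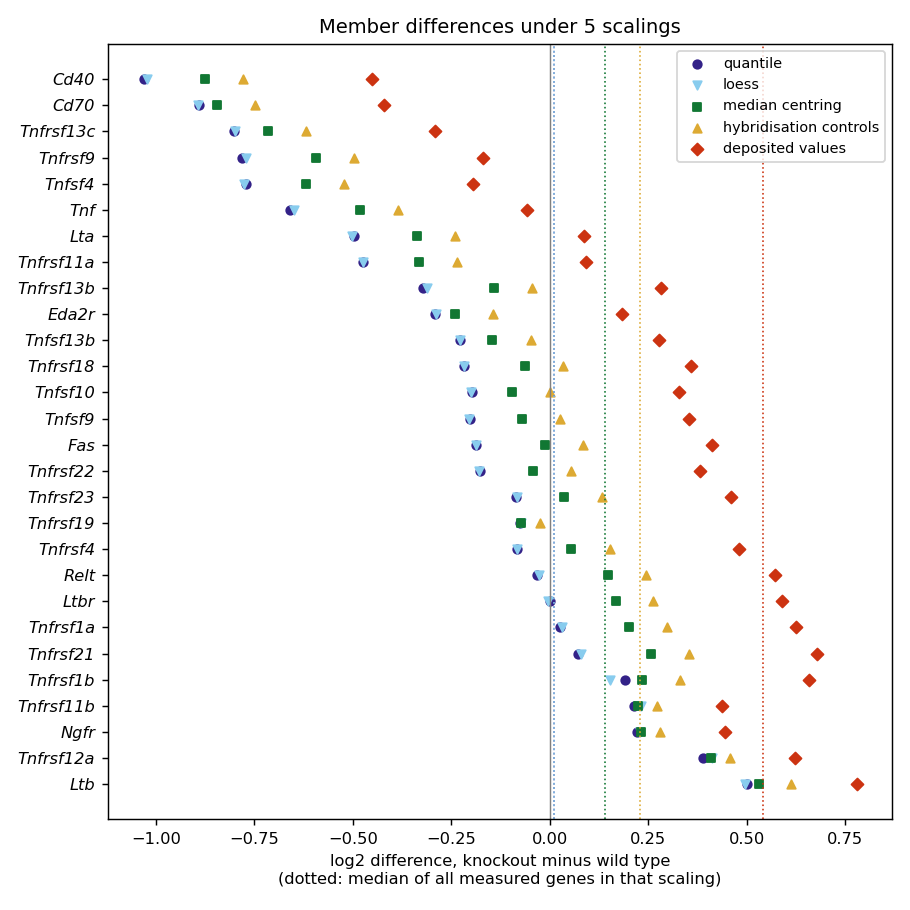
Log2 difference, knockout minus wild type (x axis), of each measured member under 5 scalings (symbols), with the median of all measured genes in each scaling dotted. The order of the members is nearly kept while all points shift together, and the lowest 6 members stay below 0 in every scaling.

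The signalling genes below the receptors passed 1.5-fold in shares that, at 0 or 1 gene per list, cannot be set apart from those of all genes (4.1% lower and 4.57% higher). Of 15 measured adaptors and ubiquitin enzymes, 1 was at least 1.5-fold lower: Traf1, an adaptor of TNFR2 and CD137, at 1706 and 1025 (-0.74) with both measured probe sets lower. The list's median was -0.08. Of 16 measured kinases and NF-kB factors, 1 was at least 1.5-fold lower, the NF-kB subunit gene Rel (473.1 and 304.4); Nfkb2, another subunit gene, lay just under that limit (1096 and 730.7, with both measured probe sets lower). This list had a median of -0.03. None of 6 death signalling genes and none of 7 genes for enzymes that release ligands and receptors passed 1.5-fold in either direction (medians -0.11 and 0.05). The death signalling gene Ripk3 lay just under that limit on the higher side (436.8 and 645.2). Among 10 genes that control the Tnf transcript, 1 was at least 1.5-fold higher, Rc3h2, encoding Roquin-2, an RNA-binding protein that represses Tnf among other transcripts, at 622.2 and 1008 with 2 of 3 measured probe sets higher; the list median was -0.01.

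Other cell type markers moved beside the members. Dendritic cell markers summed to 32178 in wild type and 28518 in the knockout, with 6 of 9 lower, led by Irf8 (4551 and 2874). Macrophage and monocyte markers summed to 47476 and 46891, with 3 of 7 lower and Mertk higher (318.0 and 558.0). Mast cell and basophil markers summed to 3422 and 1779, with 6 of 8 measured and all 6 lower, among them Hdc (2624 and 1411), Mcpt8 and Cpa3, the last 2 above the floor on the wild-type array alone, while Fcer1a and Tpsb2 lay below it on both arrays. Granulocyte markers summed to 10820 and 12829, with 7 of 9 lower, among them Ltf (111.3 and at or below the floor). The higher granulocyte markers were S100a8 (4517 and 6093) and Mmp8 (3736 and 4845). Stromal markers summed to 483.2 and 426.4, with 4 of 7 measured. The part of all these cell types in the differences of Tnf, Tnfsf4, Cd40 and Tnfrsf9 was not tested.

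Promoters of members that were lower together are shown for the genes with an entry in the RefSeq table (GRCm38.p6), which were Tnf, Tnfrsf9 and Tnfrsf13c; Cd40, Cd70 and Tnfsf4 are named only. Ltb is added because it lies near Tnf and had a higher value. Each run is the 250 bases before the annotated start, on the gene's strand, at chr17:35202008-35202257 (minus strand) for Tnf, chr4:150919905-150920154 and chr4:150927749-150927998 (plus) for the first and second start of Tnfrsf9, chr15:82224381-82224630 (minus) for Tnfrsf13c and chr17:35194257-35194506 (plus) for Ltb. Capitals mark matches to a form of the site bound by NF-kB, which reads GGG, any 2 bases and TTTCC, or to TATAAA, the TATA box, searched on both strands.
Tnf: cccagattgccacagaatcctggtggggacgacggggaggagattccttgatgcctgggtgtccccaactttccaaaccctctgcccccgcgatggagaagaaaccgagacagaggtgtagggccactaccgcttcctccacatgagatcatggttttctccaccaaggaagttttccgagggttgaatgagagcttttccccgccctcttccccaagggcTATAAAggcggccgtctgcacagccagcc
Tnfrsf9 first start: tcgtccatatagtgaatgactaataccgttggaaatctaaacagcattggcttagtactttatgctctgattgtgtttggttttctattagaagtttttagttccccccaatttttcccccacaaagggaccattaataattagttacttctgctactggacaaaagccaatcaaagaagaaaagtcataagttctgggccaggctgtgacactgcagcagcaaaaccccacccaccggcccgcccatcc
Tnfrsf9 second start: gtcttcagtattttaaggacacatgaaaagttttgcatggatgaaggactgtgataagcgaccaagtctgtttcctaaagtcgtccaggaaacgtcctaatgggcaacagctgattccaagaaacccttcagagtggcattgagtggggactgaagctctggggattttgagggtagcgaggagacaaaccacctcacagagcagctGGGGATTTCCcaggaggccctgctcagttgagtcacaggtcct
Tnfrsf13c: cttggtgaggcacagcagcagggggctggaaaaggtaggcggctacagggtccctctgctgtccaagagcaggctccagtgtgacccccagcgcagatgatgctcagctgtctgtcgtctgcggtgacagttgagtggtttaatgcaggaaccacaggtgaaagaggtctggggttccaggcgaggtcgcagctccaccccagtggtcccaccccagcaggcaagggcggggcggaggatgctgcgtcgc
Ltb: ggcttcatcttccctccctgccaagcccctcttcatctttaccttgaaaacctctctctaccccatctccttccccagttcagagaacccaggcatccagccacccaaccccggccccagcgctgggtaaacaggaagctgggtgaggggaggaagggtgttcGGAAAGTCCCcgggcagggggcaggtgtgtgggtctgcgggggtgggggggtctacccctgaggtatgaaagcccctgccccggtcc

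The Tnf run held TATAAA 29 to 24 bases before the start. The second Tnfrsf9 run held the NF-kB form 43 to 34 bases before the start, and the Ltb run held it on the other strand 87 to 78 bases before the start. Among 32851 promoter windows of the same length, 1.41% held that NF-kB form and 12.4% held TATAAA. Of 41 such windows of 37 genes that fit the name rule, 3 held the NF-kB form (Ltb, Tnfrsf25 and Tnfrsf9) and 7 held TATAAA. Of these 37 genes, 33 were members on the array. The NF-kB form was thus found beside a member with a lower value, one with a higher value and one below the floor. No match was found for either motif in the first Tnfrsf9 run or in that of Tnfrsf13c. A match is a description of these letters only, and no binding was measured.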

How the data were processed

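The authors deposited 1 table of linear intensity values for 45101 probe sets on 2 arrays. Per the labels' protocols, Trizol-extracted RNA (6 ug) was turned into biotin-labelled cRNA; the signal algorithm, scaling and detection calls were not given in the sources used here. Macrophages are named in the growth protocol, dendritic cells in the other labels. After 64 control probe sets were left out, log2 intensities were quantile normalized, since the array medians differed by 34.1% (over 10%), and floored at the median of all normalized values. Each gene took its brightest probe set by the mean of both arrays. Gene names came from the platform annotation (932 probe sets naming several genes and 9160 unnamed ones were left out). Every member was accounted for; of the other lists, genes at least 1.5-fold different were named, at most 4 per pathway list and 3 per marker list. Itgax, H2-Ab1, Cd74, Zbtb46, Dpp4, Flt3, Adgre1, Csf1r and markers below the floor were named to check cell identity. Nfkb2 and Ripk3 were named as near the limit, and Cd4, Cd8a, S100a8 and Mmp8 as markers with higher values. No test was possible with 1 array per genotype, and the number of arrays limits the precision. The scaling and floor steps were checked on simulated data with differences of at least 2-fold in probe sets well above the floor. That check does not cover 1.5-fold differences or genes near the floor. Members and lists were chosen with earlier results of these data known. Python 3.11.15, numpy 2.4.6, pandas 2.3.3, scipy 1.17.1, statsmodels 0.14.6 (lowess span 0.3) and matplotlib 3.10.9 were used.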

Additional observations from a re-analysis of the deposited data

How the results depend on the processing

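No paired analysis was possible because each genotype had 1 array and the labels carry no replicate numbers. With no scaling, 0 members were at least 2-fold lower, 0 at least 1.5-fold lower and 6 at least 1.5-fold higher, and the median was 0.14 for ligands and 0.44 for receptors; of all measured genes, 0.498% were at least 1.5-fold lower and 43.5% at least 1.5-fold higher there, where the median gene lay at 0.54. With centring on the median, 0 members were at least 2-fold lower and 5 at least 1.5-fold lower (2.91% of all genes), with Tnf at -0.48. The receptor median there was 0.01. With scaling on hybridisation controls, 0 members were at least 2-fold lower, 3 at least 1.5-fold lower and 1 at least 1.5-fold higher (1.96% and 12.2% of all genes), and the receptor median was 0.11. The median of all genes was 0.14 and 0.23 in these settings. With no floor, which adds dim probe sets, 5 members were at least 2-fold lower and 4 higher, 13 at least 1.5-fold lower and 7 higher, where 13.5% of all genes were at least 1.5-fold lower and 13.7% higher. With the floor at the 25th percentile, 2 members were at least 2-fold lower and 1 higher, and 10 at least 1.5-fold lower and 4 higher (9.82% and 9.83% of all genes). With the mean of all probe sets or the median over measured probe sets, 0 members were at least 2-fold lower, because the other Cd40 probe sets differed less. With that median Cd40 was at -0.57, under the 1.5-fold limit, while Tnfsf10 at -0.68 passed it. The 6 members at least 1.5-fold lower there (3.56% of all genes) thus held Tnfsf10 in place of Cd40. Loess, the floor at the 75th percentile and leaving out _x_at and _s_at probe sets left each of these counts and medians within the limits used (1.5 times for counts, the probe set SD for medians). The floor at the 75th percentile left 4 members at least 1.5-fold lower (2.11% of all genes), since Cd70 and Tnfrsf13c were not measured there. No member at least 1.5-fold lower changed sign under any setting where it was measured. Signal near the floor limits Cd70, Tnfrsf13c, Ltb and the members read on 1 array.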

Other observations

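Probe sets that the annotation assigned to several genes were left out above, and 3 of them named members. The probe set shared by the decoy receptor genes Tnfrsf22 and Tnfrsf23 stood at 412.2 on the wild-type and 812.8 on the knockout array, 1.97-fold higher (0.98), whereas the probe sets used that name either gene alone had differences of -0.18 and -0.09. It was higher on the deposited values too (337.0 and 1006). The probe set shared by Tnfsf13, which encodes APRIL, Tnfsf12, which encodes TWEAK, and their fusion transcript Tnfsfm13 had 377.9 and 512.3 (0.44), and that shared by Tnfsf12 and Tnfsfm13 had 280.0 and 301.1 (0.10). Neither ligand gene had a probe set naming it alone in the annotation used.

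Genes around Tnf (-0.66) on chromosome 17 had differences in both directions. On one side Bag6, Prrc2a, Aif1, Lst1 and Ltb had differences of -0.04, 0.68, 0.29, 0.09 and 0.50. On the other side Lta, Nfkbil1, Atp6v1g2 and Ddx39b had -0.50, 0.40, -0.48 and 0.09, the knockout value of Atp6v1g2 lying at or below the floor. These genes were chosen by position, after their values had been seen.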
